A study of Mus musculus with 7 samples.

Results

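Imprinted genes, which are transcribed mainly from the copy inherited from a single parent, were described in ovaries of control mice and of third-generation descendants of dams given anti-Müllerian hormone (AMH). The 44 genes followed here were taken from a list of mouse imprinted genes, with earlier results of these data known. They were matched by symbol to the annotation. All 44 were found among the 55487 gene identifiers of the count tables, and 40 had enough counts to be tested. They fall into 22 genomic clusters, of which 12 are represented by a single gene. From what is known of the mouse, 25 are expressed from the paternal copy and 11 from the maternal copy, 4 switch the parental copy with the isoform, and 4 do so with the tissue. These assignments were not checked in the ovary, and that of Ube3a, counted as maternal, is known from neurons.

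The CNTR group held 3 mice, and the PAMH F3 group held 4. All mice were C57BL/6J, and ovaries were dissected at diestrus on postnatal day 60. CNTR mice were offspring of dams injected with PBS, the vehicle, from E16.5 to E18.5 of gestation. The PAMH F3 line descended from dams that received human recombinant AMH at 0.12 mg/kg per day over the same days. No further AMH was given to later generations, and the study describes the third generation as the first unexposed one. The line was kept by crossing PAMH females with unrelated PAMH males of the same generation, so both parents came from the exposed line. Control mice were first-generation offspring, so the ancestral exposure and the number of generations since the injected dam cannot be told apart.

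Genomic imprinting rests on DNA methylation placed in the germ line at imprinting control regions and kept in the embryo on 1 parental copy only. Zinc-finger proteins such as ZFP57 bind the methylated copy and recruit the machinery that maintains the mark. In females the oocyte acquires its own set of marks as the follicle grows, while the somatic cells of the ovary keep the marks they inherited. Many imprinted genes act on growth, placental supply and energy balance. The ovaries were inbred and the data are sums over both copies of a gene, so the parental origin of a transcript was not measured, and every value here is a total level.

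Promoter sequences are given for members whose values are described further on. RefSeq windows on GRCm38.p6, from 250 bases before to 50 bases after a transcript start, were on hand for 36 of the 44 genes, and Peg10 and Sgce had none among them. Nap1l5 is shown since its groups did not overlap in the comparison described further on. Meg3 is shown since it varied together with Mirg of the same cluster. Usp29 is shown since its window shares 263 bases with that of Peg3, which is transcribed in the opposite direction from a start 147 bases away. Letters run 5′ to 3′ along the strand of the gene, and capitals mark the hexamer TGCCGC that ZFP57 recognizes, or its reverse complement GCGGCA.
Nap1l5 (chr6:58907077-58907376, minus strand): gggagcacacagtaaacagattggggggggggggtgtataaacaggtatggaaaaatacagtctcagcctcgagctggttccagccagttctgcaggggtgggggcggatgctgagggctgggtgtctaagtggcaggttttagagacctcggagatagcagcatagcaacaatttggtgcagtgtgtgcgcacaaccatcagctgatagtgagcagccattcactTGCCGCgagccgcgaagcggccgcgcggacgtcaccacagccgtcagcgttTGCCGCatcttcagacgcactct
Meg3 (chr12:109540746-109541045, plus strand): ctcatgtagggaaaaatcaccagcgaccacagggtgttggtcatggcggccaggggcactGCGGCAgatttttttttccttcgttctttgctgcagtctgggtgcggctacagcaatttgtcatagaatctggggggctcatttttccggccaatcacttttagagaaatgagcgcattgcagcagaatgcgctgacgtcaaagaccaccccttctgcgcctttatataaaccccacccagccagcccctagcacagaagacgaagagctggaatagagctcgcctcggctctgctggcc
Usp29 (chr7:6730333-6730632, plus strand): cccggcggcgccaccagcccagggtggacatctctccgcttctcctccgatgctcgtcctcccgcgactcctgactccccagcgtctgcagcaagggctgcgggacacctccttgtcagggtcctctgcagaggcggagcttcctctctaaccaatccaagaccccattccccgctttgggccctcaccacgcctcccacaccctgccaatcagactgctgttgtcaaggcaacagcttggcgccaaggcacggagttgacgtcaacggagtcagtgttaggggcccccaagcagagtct
The Nap1l5 window held the hexamer 2 times and 17 CpG dinucleotides. In the Meg3 window shown the hexamer occurred 1 time, and the Usp29 window had none. A second Meg3 window, at chr12:109545148-109545447, held 0 hexamers and 1 CpG dinucleotide and is not printed. Over the 54 windows of imprinted genes, 12 (22.2%), belonging to 11 genes, held the hexamer on either strand, against 11.6% of all 32851 windows of the same length. The median number of CpG dinucleotides was 13 in the windows of imprinted genes and 7 in all windows. These matches describe letters only, since neither methylation nor binding was used here.

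Levels are given as CPM (counts scaled to a common library total), scaled by TMM factors, and as CPM per kb of exon where genes are compared with each other. Together the 44 genes took between 0.253% and 0.288% of the gene counts of a library. Per kb of exon, the highest was Nap1l5, a nucleosome assembly protein-like gene without introns that lies inside Herc3, with a mean of 99.9 CPM per kb over the 7 libraries. Gnas, which encodes the stimulatory G protein alpha subunit that links gonadotropin receptors to cyclic AMP, followed at 58.0 CPM per kb. Nnat (neuronatin) at 36.9, H13 (a signal peptide peptidase) at 25.6 and Blcap at 22.3 CPM per kb came next. Of the 40 tested genes, 30 were above 1 CPM per kb and 13 above 10 CPM per kb.

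Nap1l5 spanned 67.2 to 152 CPM per kb over the libraries and Gnas 55.8 to 62.2, so these neighbours in the order did not overlap. Nnat, at 30.4 to 48.0 CPM per kb, did not overlap Gnas, and lay above H13, at 23.4 to 29.1 CPM per kb. H13 and Blcap, at 20.7 to 24.5 CPM per kb, did overlap. The lowest of the tested genes were Usp29 at 0.0475, Dlk1 at 0.131, Zim1 at 0.163 and Rasgrf1 at 0.182 CPM per kb. Kcnq1ot1, an unspliced noncoding RNA that is very long, stood at 0.257 CPM per kb in spite of a mean of 23.9 CPM. Magel2 and Kcnk9 had at most 1 count in any library, Phlda2 had 1 to 5 counts, and Rtl1 had 0 to 6, and these 4 genes were not tested.

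**Figure D1:**
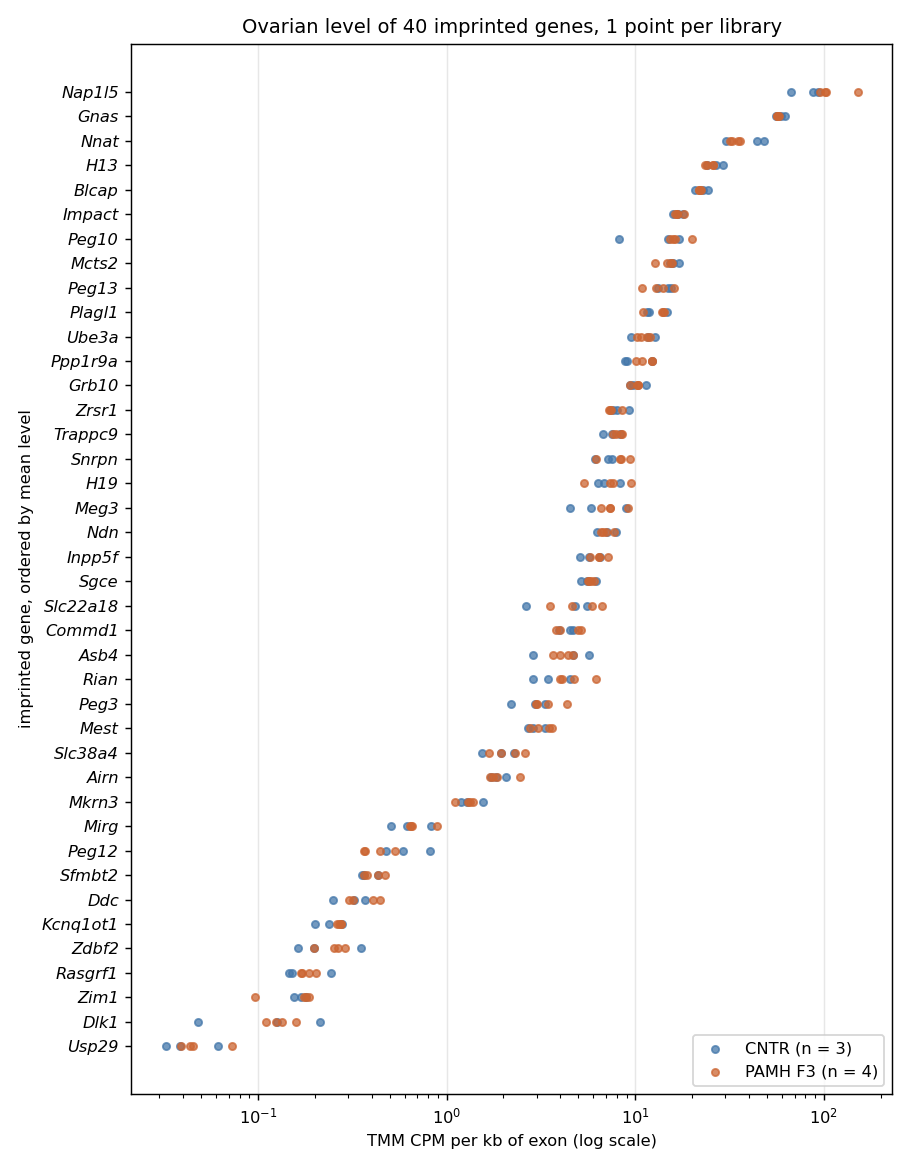
TMM CPM per kb of exon on a log scale for the 40 imprinted genes tested, ordered by their mean, with 1 point per library in the color of its group. Nap1l5 is at the top with a mean of 99.9 CPM per kb and Usp29 at the bottom with 0.0475.

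Levels in single ovaries were close to each other for most of these genes. The ratio of the highest to the lowest library had a median of 1.46 over the tested imprinted genes and 1.5 over all 18779 genes tested. Gnas was the tightest of the highly expressed members: 624, 696 and 667 CPM in CNTR and 635, 642, 644 and 631 CPM in PAMH F3. Impact, an inhibitor of the GCN2 stress kinase, spanned 80.9 to 92.7 CPM over all libraries. Dlk1, a Notch-related membrane protein that restrains adipocyte differentiation, spread most, with 0.271, 1.20 and 0.712 CPM in CNTR and 0.708, 0.903, 0.753 and 0.627 CPM in PAMH F3, which rests on only 9 to 40 counts per library.

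Gene counts per library summed to between 32158174 and 35485021. A library named CNTR 2 stood apart in base composition: its log2 level changed by 0.31 per 10% of GC content, against -0.13 to 0.04 in the other 6 libraries. Every list of cell type markers was detected, with those of oviduct epithelium and fat among them, though the theca marker Insl3 reached at most 0.150 CPM. The summed CPM of 4 oviduct epithelium markers was 3051 to 5403 in CNTR and 2711 to 6448 in PAMH F3. Most of it came from Ovgp1, at 2394 to 6172 CPM over the libraries. The dissected tissue may have held oviduct beside ovary, which was not tested. The summed CPM of 4 luteal markers was 2825 to 4769 in CNTR and 1648 to 2937 in PAMH F3, and that of 4 adipocyte markers was highest in CNTR 1, at 345 CPM, against 52.0 to 249 in the other libraries. The part of these differences in cell content in the results below was not tested. In whole ovaries, fewer cells of a type and less RNA per cell cannot be told apart.

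The first comparison set the total levels of imprinted genes in PAMH F3 ovaries against those in CNTR ovaries. No imprinted gene passed an adjusted p of 0.05 in the edgeR quasi-likelihood test with 2 surrogate variables (0 of 40), and neither did any other gene (0%, 0 of 18779). The smallest adjusted p was 0.366 among imprinted genes and 0.111 among all genes. At an unadjusted p under 0.05 there were 8 imprinted genes of 40 (20%), all with the higher mean in PAMH F3, where 7.64% of all genes met that limit in either direction and 3.75% in the higher direction. Those 8 were Peg10, Meg3, Ppp1r9a, Rian, Kcnq1ot1, Nap1l5, Slc22a18 and Trappc9. The genes followed were chosen with earlier results of these data known, and the study itself lists Peg10 as upregulated. The shares of 20% and 7.64% are therefore a description and not an independent comparison.

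That count depended on the surrogate variables. Without them 1 imprinted gene of 40 had an unadjusted p under 0.05, Nap1l5, where 3.95% of all genes did and 1.11% in the higher direction. Peg10 and Meg3, 2 of 40, were called at an adjusted p of 0.05 by DESeq2 when the same surrogate variables were included, where it called 0.575% of all genes. Without surrogate variables DESeq2 called 0 imprinted genes and 0.032% of all genes, with 2 imprinted genes of 40 at an unadjusted p under 0.05, where 4.08% of all genes were.

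Across the 40 genes the differences were small. The fitted log2 fold change was above 0 for 26 and below 0 for 14, with the same split without surrogate variables, and over all genes 9701 of 18779 (51.7%) were above 0. Its median was 0.07 over imprinted genes and 0.005 over all genes. With the sign left out, the median log2 fold change had a size of 0.15 and 0.096 respectively. The values ran from -0.39 for Peg12 to 0.66 for Dlk1, and the latter had an SE of 0.31 and a log2 fold change of 0.04 without surrogate variables.

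**Figure D2:**
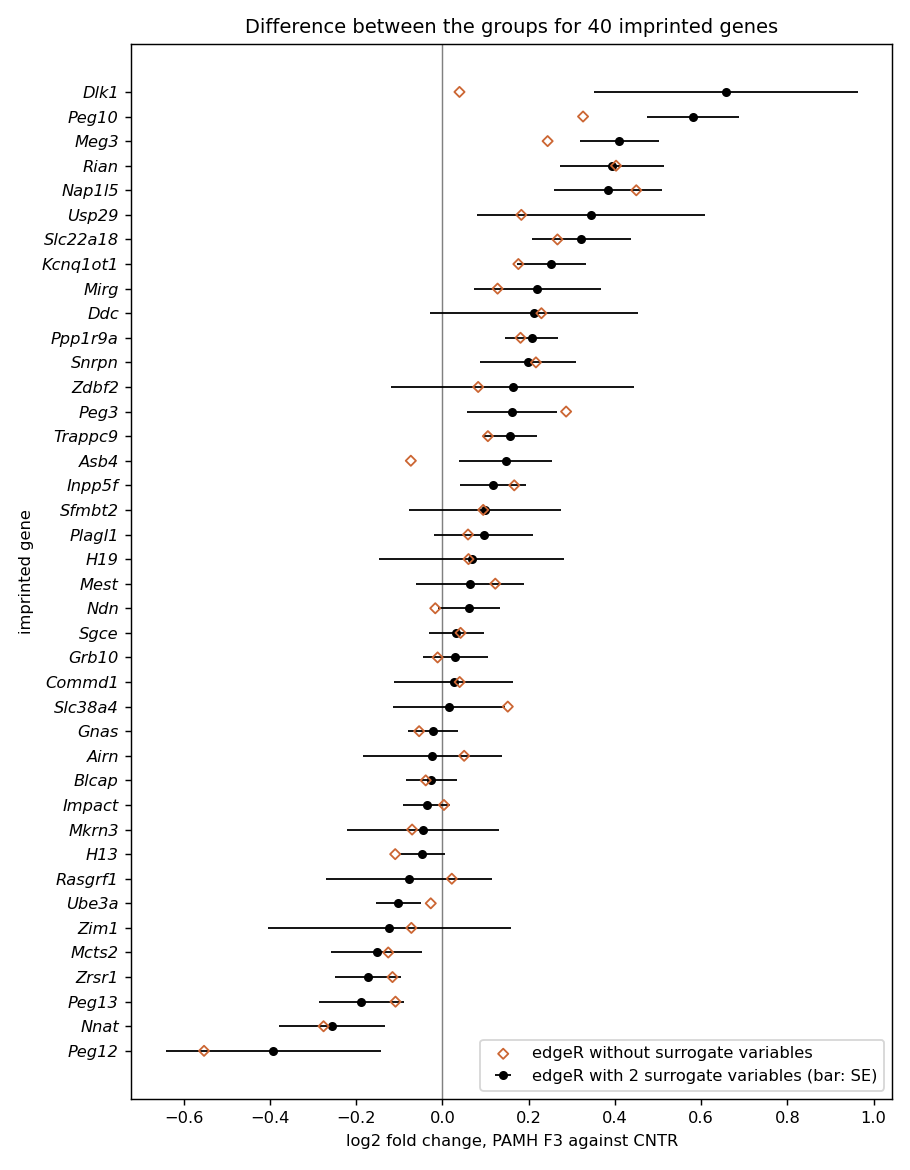
Log2 fold change of PAMH F3 against CNTR for the 40 tested imprinted genes. Filled circles with SE bars come from edgeR with 2 surrogate variables and open diamonds from edgeR without them, and no gene passed an adjusted p of 0.05 in either fit.

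Among the 40 tested imprinted genes, Nap1l5 was the only gene whose groups did not overlap, where 4.25% of all genes did not overlap and 1.85% in the higher direction. It lies at chr6:58905233-58907076 (mm10, ENSMUSG00000055430). Its level was 162, 124 and 171 CPM in CNTR ovaries and 187, 177, 189 and 279.7 CPM in PAMH F3 ovaries. Every PAMH F3 library was above every CNTR library, and the mouse PAMH F3 4 was far above the other 3. Means were 152 ± 25.1 CPM (SD, n = 3) and 208 ± 48.0 CPM (SD, n = 4), and the two-sided exact permutation test over the 35 divisions of the libraries gave p = 0.0571, where the smallest possible is 0.0286. The fitted log2 fold change was 0.38 (SE 0.13, adjusted p = 0.577) and became 0.27 (SE 0.09) without PAMH F3 4. Herc3, the host gene on the opposite strand, shares no exonic bases with Nap1l5 and had a log2 fold change of 0.07 (SE 0.08, adjusted p = 0.871).

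Peg10 and its neighbour Ppp1r9a gave the next entries, both from the cluster on chromosome 6. Peg10 (chr6:4747306-4760517, ENSMUSG00000092035), a gene of retrotransposon origin that the placenta needs, measured 55.0, 114 and 99.5 CPM in CNTR and 108, 106, 101 and 134 CPM in PAMH F3. CNTR 1 was low and the other CNTR ovaries lay within or near the PAMH F3 range, so the groups overlapped. Its log2 fold change was 0.58 (SE 0.11, adjusted p = 0.366) in edgeR and 0.58 (adjusted p = 0.00108) in DESeq2 with the same surrogate variables, and 0.33 in edgeR without surrogate variables. Without CNTR 1 it was 0.04 (SE 0.06, adjusted p = 0.776). CNTR 1 also had the highest sums of adipocyte and of ovarian surface epithelium markers and the lowest sum of granulosa markers. The part of these marker differences was not tested. Ppp1r9a (chr6:4902917-5165661, ENSMUSG00000032827), which encodes the actin-binding protein neurabin, measured 128, 131 and 179 CPM in CNTR and 179, 157, 146 and 178 CPM in PAMH F3. Here CNTR 1 and CNTR 2 were lowest and CNTR 3 level with the highest PAMH F3 ovaries, with a log2 fold change of 0.21 (SE 0.06, adjusted p = 0.540) that was 0.10 without CNTR 1.

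Meg3 and Rian are maternally expressed noncoding RNAs transcribed in the same direction on chromosome 12, and Rian hosts small nucleolar RNAs. Meg3 (chr12:109541001-109571726, ENSMUSG00000021268) measured 81.4, 106 and 162 CPM in CNTR ovaries and 119, 133, 133 and 166 CPM in PAMH F3 ovaries. The CNTR ovaries spread over nearly the whole range, with CNTR 1 lowest. The log2 fold change was 0.41 (SE 0.09), with an adjusted p of 0.511 in edgeR and 0.0303 in DESeq2, both with surrogate variables. It was 0.24 in edgeR without them and 0.07 (SE 0.12, adjusted p = 0.815) without CNTR 1. Rian (chr12:109603940-109661716, ENSMUSG00000097451) measured 62.6, 52.3 and 81.8 CPM in CNTR and 72.6, 86.8, 74.7 and 113 CPM in PAMH F3. Only CNTR 3 was inside the PAMH F3 range. Its log2 fold change was 0.39 (SE 0.12, adjusted p = 0.554) and 0.40 without surrogate variables, and leaving out PAMH F3 1 gave 0.46 (SE 0.05, adjusted p = 0.0481).

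Kcnq1ot1 and Slc22a18 belong to the Kcnq1 domain on chromosome 7, where the paternal RNA Kcnq1ot1 silences neighbours in cis. Kcnq1ot1 (chr7:143203458-143296549, ENSMUSG00000101609) measured 18.7, 22.0 and 26.1 CPM in CNTR and 24.3, 25.1, 25.6 and 25.7 CPM in PAMH F3. The PAMH F3 ovaries were tightly grouped inside the spread of CNTR. Its log2 fold change was 0.25 (SE 0.08, adjusted p = 0.560), and 0.08 without CNTR 1. Without surrogate variables it was 0.18, and -0.01 when GC content and exon length were also corrected for. Slc22a18 (chr7:143473736-143499334, ENSMUSG00000000154), a maternally expressed organic cation transporter, measured 8.14, 9.42 and 4.46 CPM in CNTR and 7.85, 10.1, 11.4 and 6.02 CPM in PAMH F3. The groups overlapped widely, and its log2 fold change of 0.32 (SE 0.11, adjusted p = 0.599) became 0.19 without CNTR 3. Phlda2, a maternally expressed growth restrainer of the placenta in the same domain, was at 0.0705 ± 0.0342 CPM (SD, n = 3) and 0.0875 ± 0.0537 CPM (SD, n = 4).

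Trappc9 (chr15:72589620-73061204, ENSMUSG00000047921), a subunit of a vesicle tethering complex, measured 53.4, 60.0 and 65.9 CPM in CNTR and 60.4, 62.9, 66.4 and 67.5 CPM in PAMH F3. CNTR 1 was lowest and the other values interleaved, with a log2 fold change of 0.16 (SE 0.06, adjusted p = 0.631) that became 0.04 (SE 0.07) without CNTR 1. Peg13, a paternal noncoding RNA in an intron of Trappc9, measured 73.2, 62.1 and 70.7 CPM in CNTR and 76.3, 60.8, 51.2 and 66.4 CPM in PAMH F3. Both the highest and the lowest ovary for Peg13 were PAMH F3, and the log2 fold change was -0.19 (SE 0.10, adjusted p = 0.718). The potassium channel gene Kcnk9 of the same cluster had 1 count in all.

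**Figure D3:**
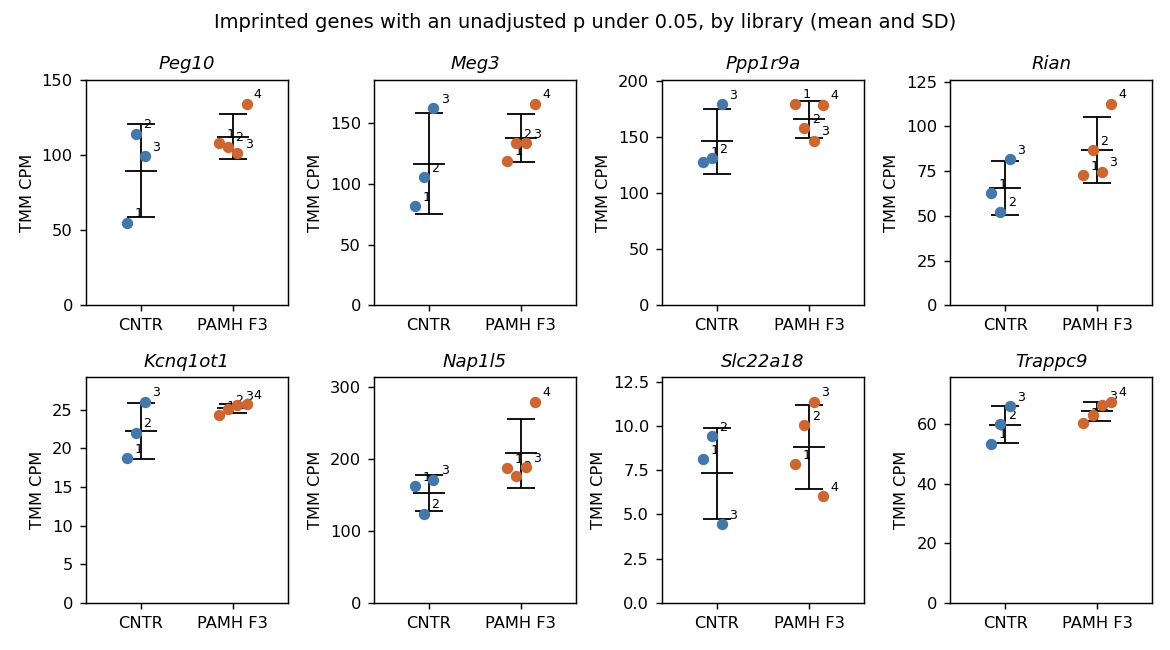
TMM CPM in each library for the 8 imprinted genes with an unadjusted p under 0.05, with the mean and SD of each group; each vertical axis starts at 0. Only for Nap1l5 do the 4 PAMH F3 points, at 177 to 279.7 CPM, all lie above the 3 CNTR points, at 124 to 171 CPM.

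The remaining members are given by cluster, and none of them had an unadjusted p under 0.05. On chromosome 12, Mirg, a host of microRNAs, was at 4.73 ± 1.17 CPM in CNTR and 5.17 ± 0.905 CPM in PAMH F3. Paternal Dlk1 was at 0.728 ± 0.465 and 0.748 ± 0.116 CPM, and Rtl1, a retrotransposon-derived gene, was at 0.121 ± 0.0516 and 0.0441 ± 0.0368 CPM (SD, n = 3 and n = 4 throughout). Near Peg10, Sgce (epsilon-sarcoglycan) stood at 59.7 ± 5.45 and 61.5 ± 2.07 CPM, and Asb4 at 17.3 ± 5.55 and 16.4 ± 1.76 CPM. For these genes the group means lay closer together than the spread between ovaries, apart from the barely detected Rtl1. It measured 0.181, 0.0900 and 0.0928 CPM in CNTR and 0, 0.0301, 0.0837 and 0.0627 CPM in PAMH F3, so every PAMH F3 library was below every CNTR library (two-sided exact permutation p = 0.0571). That separation rests on 0 to 6 counts per library, and CNTR 2, CNTR 3 and PAMH F3 3 had 3 counts each.

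On chromosome 7, the paternal zinc-finger gene Peg3 measured 44.4, 29.3 and 39.1 CPM in CNTR and 57.9, 40.2, 39.4 and 46.0 CPM in PAMH F3. CNTR 1 lay inside the PAMH F3 range and CNTR 3 just under it, and the log2 fold change was 0.16 (SE 0.10, adjusted p = 0.768). Its neighbours were low, with Usp29 at 0.797 ± 0.276 and 0.904 ± 0.275 CPM and Zim1 at 1.36 ± 0.0933 and 1.29 ± 0.339 CPM.

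In the Prader-Willi and Angelman region, Ube3a, the ubiquitin ligase gene that is imprinted in neurons, measured 264, 196 and 242 CPM in CNTR and 238, 221, 211 and 247 CPM in PAMH F3. The PAMH F3 ovaries lay inside the CNTR range, with a log2 fold change of -0.10 (SE 0.05, adjusted p = 0.713). Snrpn, a spliceosome protein gene, was at 15.0 ± 1.53 CPM in CNTR and 17.4 ± 2.91 CPM in PAMH F3. Its exons share 27.3% of their bases with Gm38393 and 10.0% with Snurf on the same strand, so its count is uncertain. Necdin (Ndn), a MAGE-family gene, was at 26.2 ± 3.10 and 25.9 ± 1.83 CPM, and Mkrn3, known for its part in the timing of puberty, at 3.43 ± 0.503 and 3.26 ± 0.297 CPM. Peg12 had the lowest fitted value, with 1.27, 2.16 and 1.55 CPM in CNTR and 0.963, 1.17, 0.976 and 1.41 CPM in PAMH F3, a log2 fold change of -0.39 (SE 0.25, adjusted p = 0.764). Magel2 had 2 libraries with 1 count each and none elsewhere.

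On chromosome 2, H13 measured 214, 258 and 239 CPM in CNTR and 208, 229, 229 and 215 CPM in PAMH F3, and the log2 fold change was -0.05 (SE 0.05). Mcts2, a retrogene within H13 that shares no exonic bases with it, was at 14.6 ± 0.847 and 13.4 ± 1.26 CPM. Nnat measured 81.4, 87.9 and 55.6 CPM in CNTR and 58.3, 59.5, 63.9 and 65.9 CPM in PAMH F3, so that CNTR 1 and CNTR 2 were above all PAMH F3 ovaries and CNTR 3 below them. Its log2 fold change was -0.26 (SE 0.12, adjusted p = 0.689). Blcap, which surrounds Nnat, measured 69.3, 74.4 and 62.9 CPM and 66.7, 66.8, 68.3 and 66.3 CPM. The PAMH F3 ovaries again lay inside the CNTR range. Gnas had a log2 fold change of -0.02 (SE 0.06, adjusted p = 0.961), and Sfmbt2, a Polycomb-group gene, was at 3.52 ± 0.39 and 3.75 ± 0.455 CPM.

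Chromosome 11 carries Grb10, which restrains insulin and IGF signalling, and Zrsr1, a retrogene within Commd1. Grb10 measured 85.7, 103 and 88.5 CPM in CNTR and 94.6, 94.2, 85.8 and 92.7 CPM in PAMH F3, and the log2 fold change was 0.03 (SE 0.08). Its neighbour Ddc was at 1.40 ± 0.268 and 1.64 ± 0.301 CPM. Zrsr1 measured 41.6, 35.8 and 34.4 CPM in CNTR and 38.4, 33.4, 32.7 and 33.1 CPM in PAMH F3, and the log2 fold change was -0.17 (SE 0.08, adjusted p = 0.668), and Commd1, a regulator of copper and protein trafficking, was at 25.9 ± 2.26 and 26.6 ± 4.07 CPM. Zrsr1 and Commd1 overlap over 412 exonic bases on opposite strands.

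Apart from Nap1l5, described above, the members that stood alone in their clusters likewise differed by less than the spread between ovaries or had overlapping groups. Among the growth regulators, Plagl1 was at 99.7 ± 13.9 CPM in CNTR and 104 ± 12.2 CPM in PAMH F3, H19, a noncoding RNA opposite in imprint to Igf2, at 17.6 ± 2.48 and 18.4 ± 4.2 CPM, and Mest at 11.7 ± 1.27 and 12.8 ± 1.54 CPM. Mest shares 23.1% of its exonic bases with Copg2 on the opposite strand. Inpp5f, an inositol phosphatase gene, was at 48.0 ± 5.92 and 53.9 ± 4.87 CPM, and Impact at 86.6 ± 5.62 and 86.8 ± 4.00 CPM. Slc38a4, an amino acid transporter, was at 8.18 ± 1.58 and 9.09 ± 1.76 CPM, and Airn, the RNA that silences Igf2r on the paternal copy, at 6.74 ± 0.615 and 6.98 ± 1.22 CPM. Zdbf2 was at 3.01 ± 1.27 and 3.18 ± 0.491 CPM, and Rasgrf1, a Ras exchange factor, at 1.99 ± 0.6 and 2.02 ± 0.179 CPM. In all, 15 members share exonic bases with a gene on the opposite strand and 9 with a gene on the same strand. The strand setting of the counting is not given in the sources used here, so reads of a gene and its antisense partner may not be separated.

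The second question was whether neighbours within an imprinted cluster varied together from ovary to ovary. Pearson's r of log2 CPM was computed over the 7 libraries for the 31 pairs of tested genes that share a cluster, in 10 clusters. Of these pairs 20 had a positive r, and the median was 0.13, with quartiles of -0.30 and 0.45. The median was -0.02 over 749 pairs of imprinted genes from different clusters and 0.18 over 18751 pairs of neighbouring genes of any kind. All pairs share the same 7 libraries and genes are not independent replicates, so these medians are descriptions. Pairs labelled as expressed from the same parental copy had a median of 0.18 (12 pairs) and pairs labelled with opposite copies 0.19 (14 pairs). Ube3a, whose imprint is known from neurons, was counted as maternal in these pairs.

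Within the chromosome 12 cluster the noncoding RNAs Meg3 and Mirg varied together, with r = 0.95 (exact permutation p = 0.000397 over all orders of the libraries, adjusted p = 0.0123 over the 31 pairs) and Spearman's rho = 0.96 (exact p = 0.00278, adjusted p = 0.0861). Both were lowest in CNTR 1 and highest in PAMH F3 4, and r was 0.95 without the 2 libraries farthest from the median of Meg3. Meg3 and Rian had r = 0.79 and Rian and Mirg r = 0.77, each with an adjusted p of 0.208 by the exact permutation test, which did not pass. Over the 6 pairs of the cluster, 5 were positive with a median r of 0.60, and the pairs with Dlk1, which rests on 9 to 40 counts, ran from -0.06 to 0.43.

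Nnat and Blcap had r = 0.88 (exact permutation p = 0.00218, adjusted p = 0.0226) and rho = 0.79 (exact p = 0.0480, adjusted p = 0.213), with r = 0.67 after CNTR 1 and CNTR 2 were left out. Sgce and Ppp1r9a had r = 0.84 (exact permutation p = 0.0147, adjusted p = 0.114), rho = 0.89 (exact p = 0.0123, adjusted p = 0.0953) and r = 0.79 without CNTR 2 and CNTR 3. After a correction for GC content and exon length the latter pair had r = 0.46, while Nnat and Blcap had 0.81 and Meg3 and Mirg 0.94. Meg3 and Rian then had 0.92, Rian and Mirg 0.88, and the 6 pairs of the Peg10 cluster ran from 0.31 to 0.71. Taken as deviations from the group means, r was 0.96 for Meg3 and Mirg, 0.91 for Nnat and Blcap and 0.84 for Sgce and Ppp1r9a. The 6 pairs of the Peg10 cluster were all positive, with a median of 0.53, but without the 2 libraries farthest from the median the value was -0.29 for Peg10 and Asb4, -0.55 for Peg10 and Ppp1r9a, -0.48 for Asb4 and Ppp1r9a and -0.73 for Peg10 and Sgce. The sign of these 4 pairs rests on those libraries, of which CNTR 1 was left out each time.

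Ndn and Ube3a of the Snrpn region gave the lowest value, r = -0.94 (exact permutation p = 0.00179, adjusted p = 0.0226). Spearman's rho was -0.89 (exact permutation p = 0.0123, adjusted p = 0.0953), and r was -0.83 without CNTR 1 and CNTR 2. They are labelled paternal and maternal, but the imprint of Ube3a is known from neurons. Ndn was highest and Ube3a lowest in CNTR 2, the library with the different base composition, and the reverse held in CNTR 1. The genes differ in exon length, 3694 bases for Ndn and 20626 for Ube3a, and somewhat in GC content, 44.5% and 41.2%. With deviations from the group means r was -0.95. After the correction for both properties, which was added after the data were seen, r was 0.23. The part of these properties in the inverse relation was not tested. Over the 10 pairs of that cluster, 5 were positive, with a median of -0.12.

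Grb10 and Ddc had r = -0.67 (exact permutation p = 0.0994, adjusted p = 0.387) and rho = -0.68 (exact p = 0.110, adjusted p = 0.377), with r = -0.55 without CNTR 1 and CNTR 2. For Peg12 and Snrpn r was -0.66 (exact permutation p = 0.0998, adjusted p = 0.387) and rho -0.79 (exact p = 0.0480, adjusted p = 0.213), with -0.97 without CNTR 2 and PAMH F3 1. Neither pair passed the threshold.

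Pairs that share a promoter region or overlap ranged widely in r. Nnat, which lies within Blcap, gave the r of 0.88 with it described above. Peg10 and Sgce start 99 bases apart in opposite directions and are both paternally expressed, and they had r = 0.11 (exact permutation p = 0.788, adjusted p = 0.916) and rho = -0.04 (exact p = 0.963), with -0.73 without CNTR 1 and PAMH F3 4. Peg3 and Usp29, with the overlapping promoter windows described above, had r = -0.49 (exact permutation p = 0.277, adjusted p = 0.704) and rho = -0.21 (exact p = 0.662), with -0.17 without CNTR 2 and PAMH F3 1, and the counts of Usp29 were as low as 19. For the other nested or overlapping pairs, r was 0.13 for Mcts2 and H13, -0.46 for Peg13 and Trappc9 and -0.28 for Zrsr1 and Commd1, with adjusted p values of 0.916, 0.704 and 0.812 by the exact permutation test. The low correlations of these pairs do not show that they vary independently.

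**Figure D4:**
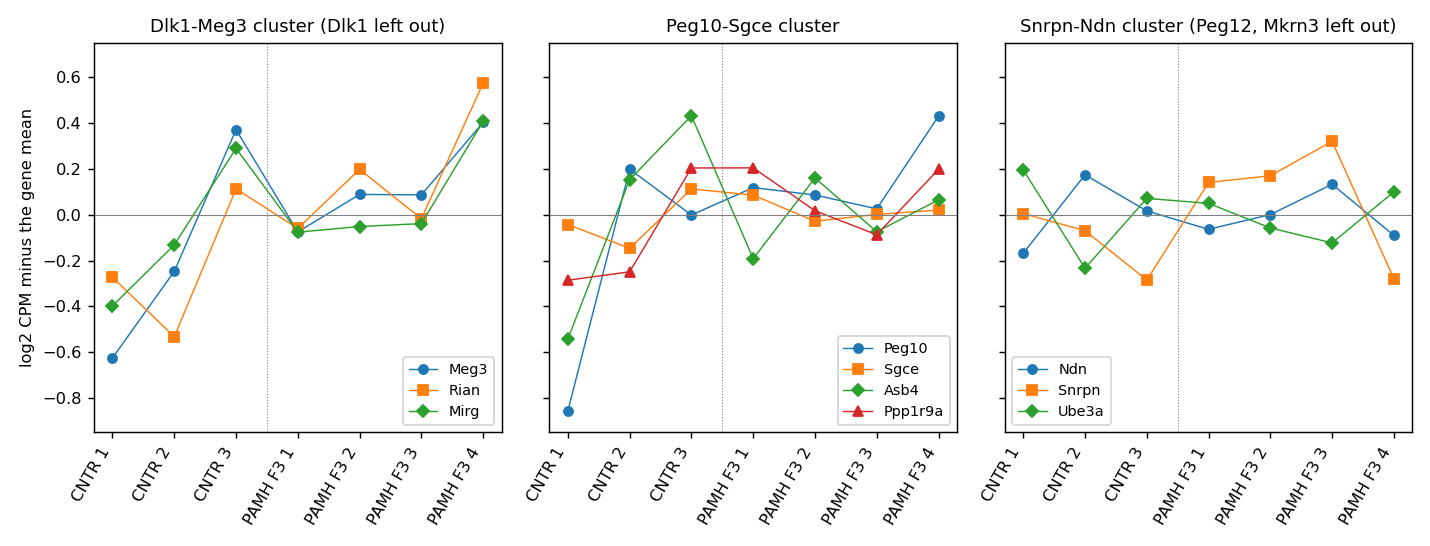
Log2 CPM of genes of 3 imprinted clusters in each of the 7 libraries, with each gene's own mean subtracted. Lines join the values of a gene and imply no order among mice; Meg3 and Mirg move together (r = 0.95), the pairs with Rian have r of 0.77 and 0.79 and did not pass the test, and Ndn and Ube3a move in opposite directions (r = -0.94, or 0.23 after the GC and length correction).

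Genes that establish or guard imprints were read from a separate list of 21, of which 20 were tested. With edgeR, 0 passed an adjusted p of 0.05, and 1 had an unadjusted p under 0.05 with the higher mean in PAMH F3, against 3.75% of all genes. It was Tet1, an enzyme that oxidizes 5-methylcytosine, with 26.5, 21.3 and 33.9 CPM in CNTR and 33.6, 30.0, 29.5 and 42.1 CPM in PAMH F3 (log2 fold change 0.28, SE 0.08, adjusted p = 0.540). CNTR 3 lay within the PAMH F3 range. Zfp57, whose hexamer is marked above, was at 53.5 ± 5.60 CPM in CNTR and 50.4 ± 4.78 CPM in PAMH F3. The median log2 fold change of the list was 0.01, with 12 of 20 above 0, and without surrogate variables it was 0.06, with 17 of 20 above 0.

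Of 39 further imprinted or imprint-adjacent genes, 31 were tested and 0 passed an adjusted p of 0.05 in edgeR. At an unadjusted p under 0.05, 1 had the higher mean in PAMH F3 and 2 the lower, where 3.75% and 3.89% of all genes did, and the median log2 fold change was -0.04. Smoc1, a matricellular protein gene, measured 104, 167 and 146 CPM in CNTR and 161, 161, 160.4 and 176 CPM in PAMH F3 (log2 fold change 0.40, SE 0.07, adjusted p = 0.365, and adjusted p = 0.00165 in DESeq2, both with surrogate variables, against a log2 fold change of 0.25 in edgeR without them). CNTR 1 was its lowest library. Cdkn1c, the maternally expressed cell cycle inhibitor of the Kcnq1 domain, measured 9.31, 13.7 and 7.40 CPM in CNTR and 6.86, 7.41, 8.31 and 6.05 CPM in PAMH F3 (log2 fold change -0.38, SE 0.12, adjusted p = 0.560). Dio3, which inactivates thyroid hormone and lies beyond Mirg on chromosome 12, measured 4.64, 6.81 and 7.06 CPM in CNTR and 4.70, 4.67, 3.93 and 4.39 CPM in PAMH F3 (log2 fold change -0.35, SE 0.15, adjusted p = 0.652). The groups overlapped for all 3 genes. Among the 31 tested genes of the list only Gab1 had groups that did not, where 4.25% of all genes did not overlap and 1.85% in the higher direction. Gab1 was at 79.3 ± 6.89 and 87.4 ± 1.47 CPM (log2 fold change 0.10, adjusted p = 0.730). Igf2, a fetal growth factor gene with too few counts to be tested, was at 0.141 ± 0.0153 CPM in CNTR, from 4 to 5 counts per library, and at 0.0734 ± 0.0162 CPM in PAMH F3, from 2 to 3 counts, and its groups did not overlap either (two-sided exact permutation p = 0.0286, the smallest possible). Igf2 was chosen after its values were seen, so this p value only describes the separation. The share of non-overlapping groups among genes with so few counts was not taken.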

How the data were processed

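Ovarian poly(A) RNA from 3 CNTR and 4 PAMH F3 mice was sequenced by the authors as stranded libraries with single reads, 1 mouse per library. Per the labels and the study's methods, bcl2fastq 2.17.1.14, STAR 2.5.3a (mm10) and HTSeq 0.6.1p1 (union mode, uniquely aligned reads) were used, and the authors deposited raw counts per gene. The Ensembl release and the strand setting are not given in the sources used here. Summary lines were left out: alignments that were not unique came to 37.7% to 40.7% of a library's total, reads in no gene to 9.81% to 12.0% and ambiguous reads to 1.17% to 1.43%.

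Of the 55487 identifiers, 55394 matched GENCODE M21, which gave names, exon lengths and mm10 coordinates. The 44 members and the other lists were chosen with earlier results of these data known. Genes kept by filterByExpr (minimum count 10) were TMM-scaled and tested with the quasi-likelihood F test of edgeR 4.0.16 (R 4.3.3), with 2 surrogate variables from svaseq (sva 3.50.0, number by num.sv with seed 1, at most 3), which left 3 residual degrees of freedom. P values were adjusted by Benjamini-Hochberg over all 18779 genes, threshold 0.05. SE was derived from the log2 fold change and F. DESeq2 1.42.0 was an alternative, as were fits with other surrogate variables, scalings and filters, the replicate block and leaving out each library. A correction for GC content and exon length, run without surrogate variables, was added after the data were seen. P values measure the spread between these mice only. The fitting code was tested on simulated data.

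Full statistics are given for members past the threshold, with an unadjusted p under 0.05 or with groups that did not overlap, library values also for the 5 members with the highest CPM per kb and for the member with most CPM in each cluster of several, and r for the 3 highest and 3 lowest pairs and for pairs that share a promoter or overlap. Library values of Dlk1, Peg12 and Peg13, and Herc3, Zfp57, Igf2 and the range of Impact, were chosen after their values were seen. Log2 CPM for correlations used a prior count of 2.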

Additional observations from a re-analysis of the deposited data

Results flagged for a closer look

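In 5 imprinted genes a single PAMH F3 ovary lay far from the other 3, by the ratio of its gap to the range of the group of 4 against Dixon's 95% critical value. Nap1l5 was at 279.7 CPM in PAMH F3 4, above the others at 177 to 189 CPM. Mirg was at 6.52 CPM in the same ovary, above 4.65 to 4.77 CPM. Zim1 was at 0.783 CPM in PAMH F3 2, below 1.42 to 1.51 CPM, from 26 counts. Plagl1 was at 85.7 CPM in PAMH F3 1, below 108 to 111 CPM. Zrsr1 was at 38.4 CPM in PAMH F3 1, above 32.7 to 33.4 CPM. Chance gives such a gap in about 1 of 20 groups, and 40 groups of 4 were examined; the 3 CNTR ovaries were too few to be examined in the same way.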

How the results depend on the processing

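The count of 0 imprinted genes at an adjusted p of 0.05 became 2 in DESeq2 with the same surrogate variables (Peg10, 0.00108; Meg3, 0.0303) and ran from 0 to 1 when a library was left out (Rian, adjusted p = 0.0481 without PAMH F3 1). Over all genes the count became 108 in DESeq2 with and 6 without surrogate variables, 8 without a filter, and 0 to 39 with a library left out (39 without CNTR 1, 37 without PAMH F3 1). Imprinted genes with an unadjusted p under 0.05, 8 in all, were 1 without surrogate variables, 4 with 1 surrogate variable, 2 in DESeq2 without surrogate variables, 2 in edgeR with the GC and length correction and no surrogate variables, and 6 to 10 with a library left out. The genes behind these counts changed. Without CNTR 1 the count was 9, but Peg10, Meg3, Ppp1r9a, Kcnq1ot1 and Trappc9 were not among them. Trappc9 met the limit in only 5 of the 16 alternatives. Of all genes, 7.64% met that limit in the main fit, and 3.95% in edgeR and 4.08% in DESeq2 without surrogate variables. That share was not taken for the other fits named here or for the replicate block below, so their counts cannot be read against it. Imprinted genes whose groups did not overlap numbered 1 to 10 with a library left out: 7 without CNTR 1, 3 without CNTR 2, 10 without CNTR 3, 2 without PAMH F3 1 and 3 without PAMH F3 4, and over all genes 15.4%, 9.81%, 13.3%, 9.39% and 6.35%, since fewer libraries overlap less often. The median r within clusters was 0.025 to 0.43 with a library left out, the highest without CNTR 2. The log2 fold change of Kcnq1ot1 turned to -0.014 with the GC and length correction and no surrogate variables, against 0.18 when only the surrogate variables were left out. The log2 ratio of mean CPM of Rasgrf1 moved to 0.30 without CNTR 1. The causes of these shifts were not tested. The median log2 fold change of the imprinted genes stayed between 0.03 and 0.09 under all 16 alternatives.

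With the replicate number as a block in place of the surrogate variables, since both together would leave no residual degrees of freedom, 0 imprinted genes were called and 1 had an unadjusted p under 0.05. Samples of the same number share only that number: the correlations of their deviations from the group means were 0.096, 0.097 and -0.25 for numbers 1, 2 and 3, and CNTR 2 correlated best with PAMH F3 3 (0.28) and CNTR 3 with PAMH F3 4 (0.27). Depth left Magel2, Kcnk9, Phlda2 and Rtl1 without a test across genes, and leaves Dlk1, Usp29, Zim1, Peg12 and Ddc with few counts.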
